A study of Mus musculus with 5 samples.

Results

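A set of 10 mouse genes was examined that had been picked because their RNA was nearly on or off, or differed by a large and tight margin, between HOX13 mutant and wild-type E11.5 forelimb libraries, and because they are known or possible sites of variation between mouse strains (copy number, null alleles). They are Cwc22, Cmah, Nlrp1a, BC049730, Cldn13, Klk1b22, Trim12a, Pop4, Gstp1 and Wdr65, which is 10 of the 23284 genes counted. They were chosen by their counts in the mutant against wild-type contrast, so every value of these 10 genes in that contrast is a description and supports nothing. The rule set no numeric threshold. The E10.5 library, the relatives of each gene and its neighbours on the chromosome were not part of the rule.

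There were 5 libraries of total RNA depleted of ribosomal RNA. The E11.5 mutant group held 2 libraries of micro-dissected distal forelimb from Hoxa13-/-;Hoxd13-/- embryos, whose Hoxa13 allele carries a neomycin cassette in the coding region and whose Hoxd13 allele carries lacZ in the first exon. The E11.5 wild-type group held 2 libraries of the same distal tissue. Both E11.5 groups are labelled as a mixed C57BL/6 and CD1 background, where C57BL/6 is an inbred strain and the source of the mouse reference genome and CD1 an outbred stock. The E10.5 group was 1 library of forelimb bud labelled CD1. Each E11.5 library came from its own pool of dissected tissue, with N = 4 stated for the tissue samples. The strain make-up of the pools was not measured, so a difference between genotypes and a difference in the strain origin of a locus cannot be told apart in these libraries.

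A gene can differ between strains because one strain lacks it, carries extra copies of it or reads it from a different promoter allele, and in a mixed background an embryo can carry either version or both. Families of near-identical genes in tandem arrays, such as kallikreins, NLRP1 inflammasome sensors and TRIM5-related antiviral proteins, are well known in the mouse for such variation, as is Cwc22 for its copy number. A targeted allele also carries a stretch of chromosome from the embryonic stem cells in which it was made.

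The libraries held between 45115494 and 84172202 counts in genes. Hoxd13 measured 47.7 and 40.0 CPM (counts per 1e6 counts in genes) in mutant libraries against 247 and 246 in wild type, and 54.96 at E10.5. Hoxa13, whose allele is an insertion that can leave RNA, measured 48.0 and 39.8 in the mutant, 50.8 and 47.2 in wild type and 5.38 at E10.5. All 14 limb bud mesenchyme markers reached at least 1 CPM in every library, and in the mutant 2 of them rose and 7 fell, among them Msx1 (-0.84), Msx2 (-0.93), Fgf10 (-0.68) and Grem1 (0.72). Among other cell types 0 rose and 2 fell of 15 tested surface ectoderm markers (Krt8 -0.56, Krt14 -0.42), 1 rose and 2 fell of 12 for neurons and Schwann cells (Gap43 0.98, Tubb3 -1.54, Stmn2 -1.57), 0 rose and 1 fell of 12 for muscle (Actc1 -0.87), and 1 rose and 1 fell of 12 for endothelium (Flt1 0.69, Erg -0.54), all as log2 fold changes. The calls of Krt8 (adjusted p = 0.0900 by edgeR), Krt14 (0.316) and Flt1 (0.344, log2 0.43) ended without mutant replicate 1, those of Krt8 (0.0558), Krt14 (0.0666) and Flt1 (0.0600) also without wild-type replicate 2, that of Erg (0.0745) without mutant replicate 2, and those of Krt14 (0.0553) and Flt1 (0.0707) also with library size scaling. The X-inactivation RNA Xist was at 198 CPM in the E10.5 library and between 1.02 and 1.45 CPM in the 4 E11.5 libraries. The Y-linked Ddx3y went the other way, at 75.4 CPM at E10.5 and between 162 and 194 CPM in the E11.5 libraries. Both mark embryo sex, so the sex make-up of the libraries moved together with stage, dissected part and strain label. The part of embryo sex in the E10.5 comparisons was not tested. In bulk tissue, fewer cells of a type and less RNA per cell cannot be told apart.

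The mutant and wild-type ranges did not overlap for any of the 10 genes, which the picking fixed; 49.5% of all tested genes also had ranges that did not overlap. In the edgeR quasi-likelihood test 7.16% of 16166 genes passed an adjusted p of 0.05, 3.82% higher and 3.34% lower in the mutant. Of the 10 genes 5 were higher in the mutant and 5 lower. All 10 passed the filter on low counts, and BC049730, Cldn13, Klk1b22 and Wdr65 passed only through the genotype in which they were higher. BC049730, Cldn13 and Klk1b22 had no count in both libraries of 1 genotype and at least 20 in both of the other, a pattern of 0.033% of 15151 genes that the picking also fixed. They lie on 7 chromosomes in the RefSeq gene table, and 4 of them (BC049730, Pop4, Klk1b22 and Trim12a) on chromosome 7.

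**Figure D1:**
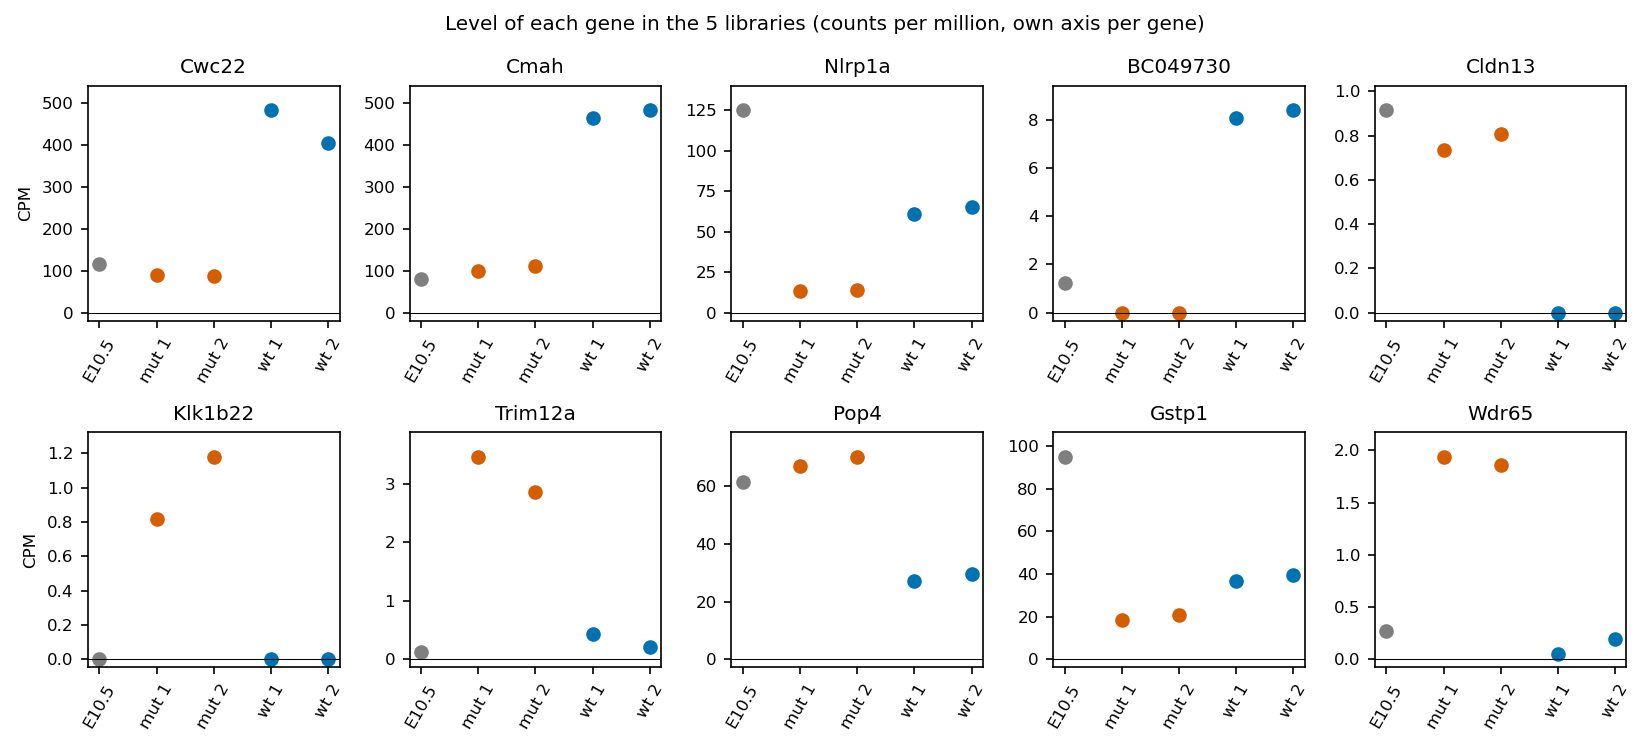
CPM of each of the 10 genes (vertical axis, from 0, own scale per gene) in the E10.5 library (grey), the 2 mutant E11.5 libraries (orange) and the 2 wild-type E11.5 libraries (blue), 1 point per library. BC049730 is at 0 in both mutant libraries, and Cldn13 and Klk1b22 are at 0 in both wild-type libraries.

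The E10.5 library was set against each E11.5 genotype. A gene was called when it lay at least 2-fold away from both libraries of that genotype, on a log2 scale of TMM-normalized CPM (prior count 2). With 1 library at E10.5 there is no replicate check and no test. Against wild type 4 of the 10 genes were higher at E10.5 and 3 lower, beside 3.86% and 12.9% of 16738 genes. Against the mutant 3 were higher and 3 lower, beside 4.13% and 14.5%. Higher calls made up 22.1% of all calls against the mutant and 23.1% against wild type, or 11.6% and 13.5% when scaled by library size alone. Each comparison reuses libraries on which the 10 genes were picked, so these counts are descriptions and the comparisons are not independent of each other. The values show 3 patterns, given gene by gene below. Cwc22, Cmah, Cldn13 and Pop4 lay within 2-fold of at least 1 mutant library and past 2-fold from both wild-type libraries. Klk1b22, Trim12a and Wdr65 did the reverse, and Nlrp1a, BC049730 and Gstp1 lay past 2-fold from both genotypes.

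**Figure D2:**
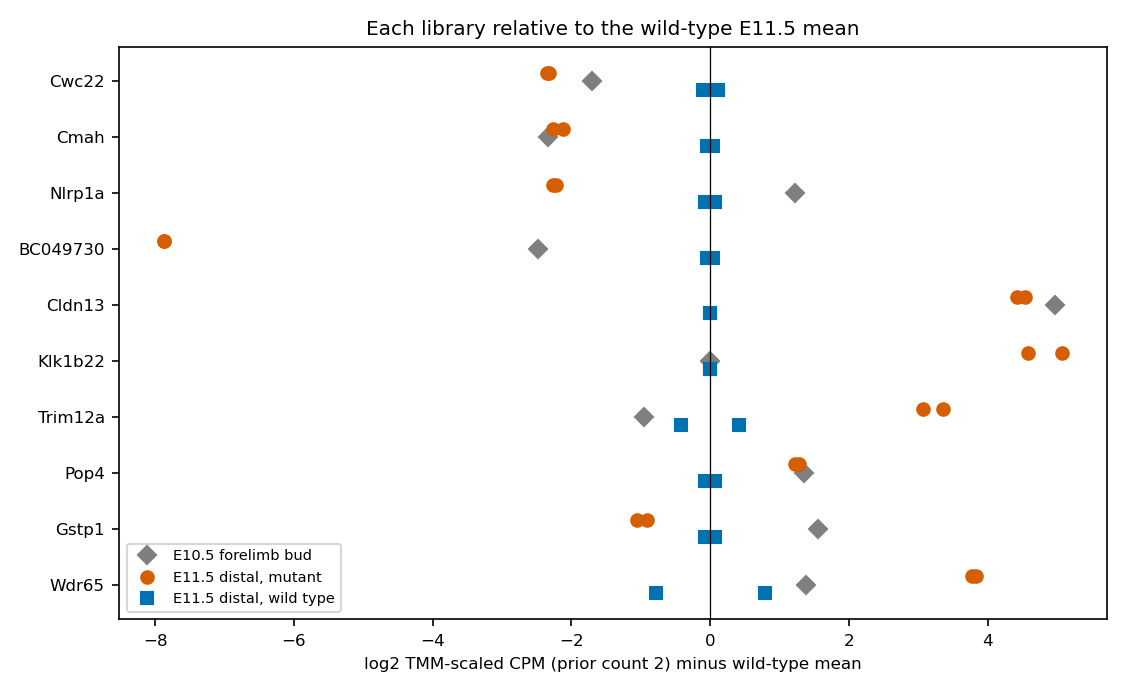
Log2 TMM-scaled CPM (prior count 2) of each library minus the mean of the 2 wild-type libraries, for E10.5 (grey diamonds), mutant (orange circles) and wild type (blue squares). The E10.5 point falls beside the mutant points for Cmah, Cldn13 and Pop4, beside the wild-type points for Klk1b22, and above both genotypes for Nlrp1a and Gstp1.

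Cwc22 encodes a splicing factor that recruits the helicase EIF4A3 and so starts assembly of the exon junction complex. It measured 89.1 and 88.0 CPM in mutant libraries, 482 and 405 in wild type, and 115 at E10.5. The mutant and E10.5 libraries were all low and the wild-type libraries high. The mutant was lower by a log2 fold change of -2.33 (SE 0.10), and wild type was 3.85-fold above E10.5. In the GENCODE M21 transcripts 31.9% of the 3422 windows of 50 bases (the read length) in Cwc22 also occur in another gene. These are mostly Gm13691, Gm13693, Gm13694, Gm13695, Gm13696, Gm13697 and Gm13698, which lie on the same chromosome 2 and share between 1088 and 1092 windows each. None of these Gm genes is among the genes counted. Reads without a unique alignment were not counted to any gene, so reads of the shared windows can be missing from Cwc22. Which copy the counted reads come from is uncertain. Of 18 tested splicing and exon junction partners 1 rose and 0 fell (median log2 change -0.06, against -0.0008 over all genes tested). An unadjusted p under 0.05 in edgeR was reached by 2, and DESeq2 called 1. The 1 that rose was Aqr, an intron-binding helicase (0.35, SE 0.09, adjusted p = 0.0316 by edgeR), with an adjusted p of 0.294 without mutant replicate 1 and 0.0849 without mutant replicate 2.

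Cwc22 lies on the same chromosome as the targeted Hoxd13, with 27 tested genes between them in RefSeq order, HoxD genes among them. Of these 27 genes 8 rose and 2 fell, beside 3.82% and 3.34% of all genes tested. Between Hoxd4, which rose (log2 change 2.04), and Cwc22 only Hnrnpa3 rose (0.34, adjusted p = 0.0339 by edgeR), and Cyct and Zfp385b fell. Among the 20 nearest tested neighbours of Cwc22, 10 on each side, 1 rose and 2 fell, or 15% beside 7.16% of all genes. The one that rose was the WNT antagonist Frzb, at 80.2 ± 0.0627 CPM in wild type (SD, n = 2 here and below) and 137 ± 8.36 in the mutant (0.76, SE 0.09, adjusted p = 0.00025). The zinc finger gene Zfp385b, next to Cwc22, fell (-1.82, SE 0.48, adjusted p = 0.0399), as did Ssfa2 (-0.49, SE 0.11, adjusted p = 0.0142). The Zfp385b call ended without any 1 of the 4 libraries (adjusted p between 0.0892 and 0.252), with library size scaling (0.0572), with the replicate block (0.0653) and in DESeq2 (0.162), and that of Ssfa2 without mutant replicate 1 (0.0532) or 2 (0.0566).

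Pop4 encodes a protein subunit of RNase P, which trims the ends of transfer RNA precursors, and of the related RNase MRP. It measured 67.0 and 70.3 CPM in mutant libraries, 27.3 and 29.5 in wild type, and 61.7 at E10.5. Only the wild-type libraries were low. The mutant mean was 2.42-fold higher (log2 change 1.26, SE 0.10), and the E10.5 level was 2.17-fold above wild type and 0.898 of the mutant. None of its 50-base windows occurs in another gene. Of 10 other tested RNase P and MRP genes 1 rose and 0 fell (median 0.00), with 2 at an unadjusted p under 0.05 in edgeR and 1 called by DESeq2. The riser was Pop1, the largest protein subunit, from 32.5 ± 0.0999 to 41.8 ± 1.10 CPM (0.35, SE 0.10, adjusted p = 0.0497). Its adjusted p was 0.340 without mutant replicate 1, 0.179 without mutant replicate 2, 0.0588 without wild-type replicate 1 and 0.0522 with the DESeq2 size factors. The genes next to Pop4, Plekhf1 (-0.01) and Zfp939 (0.63, adjusted p = 0.0559), did not pass. Among 20 neighbours only the pheromone receptor gene Vmn2r57 did (2.35, SE 0.59, adjusted p = 0.0317), at under 1 CPM in all libraries and with a call that ended without any 1 library (between 0.0515 and 0.188) and in DESeq2 (0.132).

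Cmah encodes the hydroxylase that turns CMP-N-acetylneuraminic acid into CMP-N-glycolylneuraminic acid, so that it sets which sialic acid caps cell-surface sugars. It measured 99.8 and 110 CPM in mutant libraries, 464 and 482 in wild type, and 79.4 at E10.5. The E10.5 library stood with the mutant libraries and below both wild-type ones. The mutant was 4.50-fold lower (log2 change -2.19, SE 0.09), and wild type was 5.96-fold above E10.5. None of its 50-base windows is shared with another gene. Of 21 tested genes that make, transfer or remove sialic acid, 0 rose and 0 fell (median 0.09). By unadjusted p under 0.05 in edgeR there was 1, and DESeq2 called 0. The most abundant, the sialic acid synthase Nans, had 78.7 and 85.3 CPM in mutant libraries and 83.5 and 89.1 in wild type.

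Beside Cmah 1 of 20 tested neighbours rose and 3 fell, or 20%, and 3 of these 4 are histone genes of the cluster beside it. Hist1h2aa was at 0.0334 and 0.0621 CPM in mutant libraries and 0.465 and 0.931 in wild type (log2 change -3.88, SE 0.67, adjusted p = 0.0039). Hist1h2bb rose (0.56, SE 0.10, adjusted p = 0.00538) and Hist1h4a fell (-0.42, adjusted p = 0.0398). Copies of histone genes are nearly identical, so their counts are uncertain. Lrrc16a, a regulator of actin capping and the nearest tested gene on that side, fell (-0.40, adjusted p = 0.0471). On the other side Fam65b had 0.39 with an adjusted p of 0.326. The Hist1h4a call ended without mutant replicate 1 (0.0664), mutant replicate 2 (0.0908) or wild-type replicate 2 (0.124, log2 change -0.23), and with library size scaling (0.0585). The Lrrc16a call ended without mutant replicate 1 (0.162), mutant replicate 2 (0.136) or wild-type replicate 1 (0.121, log2 change -0.26), and with library size scaling (0.0976), DESeq2 size factors (0.05) or the stricter filter (0.0545).

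Gstp1 encodes the pi-class glutathione transferase, which couples glutathione to reactive compounds. It measured 18.5 and 20.6 CPM in mutant libraries, 36.8 and 39.5 in wild type, and 95.0 at E10.5. The E10.5 library was the highest of the 5 and the mutant libraries the lowest. The mutant mean was 1.95-fold lower (log2 change -0.98, SE 0.11), and E10.5 was 2.49-fold above wild type and 4.85-fold above the mutant. Its neighbour Gstp2 is a near-identical copy, with 98.1% identity over 633 coding bases, and 62.3% of the 50-base windows of Gstp1 occur in another gene. The start of both coding sequences is shown, as for the other pairs below, with differing bases in capitals (GENCODE M21, bases 1 to 60, with 6 differences). Reads of both genes can be told apart in this stretch. This stretch differs more than the whole coding sequence does, of which 621 of 633 bases are identical.
Gstp1: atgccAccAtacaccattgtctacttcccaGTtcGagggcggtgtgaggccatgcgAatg
Gstp2: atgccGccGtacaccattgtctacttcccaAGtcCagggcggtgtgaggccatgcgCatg
Gstp2 counts were 27 and 19 in the mutant, 28 and 31 in wild type and 86 at E10.5 (log2 change -0.48, SE 0.41, adjusted p = 0.603). Reads without a unique alignment were not counted to either gene. Reads of shared windows can thus be missing from both, and the split of reads between them is uncertain.

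Among 18 other tested glutathione transferases 1 rose and 2 fell (median -0.14), with 6 at an unadjusted p under 0.05 in edgeR and 2 called by DESeq2. The omega-class Gsto1 (-0.53, SE 0.11, adjusted p = 0.0141) and the microsomal Mgst1 (-0.51, SE 0.11, adjusted p = 0.0151) fell, and Gstm6 rose (3.01, SE 0.68, adjusted p = 0.0198). Gstm6 had 24 and 21 counts in the mutant against 1 and 4 in wild type and 2 at E10.5. The calls of Gsto1 (0.142) and Mgst1 (0.0532) ended without mutant replicate 2, and that of Gstm6 without wild-type replicate 1 (0.0819). DESeq2 gave no adjusted p for Gstm6. Of 14 targets of NRF2, the transcription factor that induces many glutathione genes, 0 rose and 1 fell (median -0.12), the cystine transporter Slc7a11, from 63.6 ± 1.18 to 41.9 ± 3.09 CPM (-0.62, SE 0.10, adjusted p = 0.00199). An unadjusted p under 0.05 in edgeR was reached by 4 of these 14 targets, and DESeq2 called 1. Among 20 tested neighbours of Gstp1 only Pitpnm1, a lipid transfer protein, changed (-1.27, SE 0.16, adjusted p = 0.000366), from 12.3 ± 1.92 to 5.12 ± 0.223 CPM. The respiratory chain gene Ndufv1, next to Gstp1 on the other side, had -0.02.

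Klk1b22 encodes a tissue kallikrein, a secreted serine protease of a tandem array that is prominent in the mouse salivary gland. It had 49 and 57 counts in the mutant, 0.819 and 1.18 CPM, and 0 in both wild-type libraries and at E10.5. The transcript was thus detected in the mutant libraries alone. A count of 0 allows up to 0.0297 CPM over the wild-type libraries and 0.0356 CPM at E10.5 (3 counts each, counting error only). The mutant level was at least 33.0-fold above wild type and at least 27.5-fold above E10.5. In the GENCODE transcripts 13.3% of its 50-base windows occur in another gene, and its closest relative among the kallikreins compared was Klk1b21, with 88.8% identity. The start of their coding sequences shows 3 differing bases, in capitals.
Klk1b22: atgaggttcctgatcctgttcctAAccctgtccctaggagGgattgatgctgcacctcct
Klk1b21: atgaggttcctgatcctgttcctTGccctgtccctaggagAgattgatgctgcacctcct
There were 12 other Klk1b genes, of which 10 had no count in any library, and no library gave any of them more than 2 counts. Only 2 of 25 other kallikreins passed the low-count filter, Klk8 and Klk9, and 0 changed (0 by unadjusted p under 0.05 in edgeR, 0 by DESeq2). Klk8, next to Klk1b22 among the tested genes, had 4.78 and 5.22 CPM in mutant libraries and 4.90 and 5.32 in wild type.

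Other kallikreins were detected at a few counts. Klk15 had 12 and 10 counts in wild type and 0 in the mutant and at E10.5, opposite in direction to Klk1b22. Klk14 had 48 counts at E10.5, 5 and 7 in the mutant and 11 and 1 in wild type. Klk10 had 16 and 5 in the mutant, 7 and 10 in wild type and 8 at E10.5, Klk11 had 6 and 14, 5 and 2, and 2, and Klk13 had 4 and 9, 6 and 10, and 5. Klk1 and Klk7 stayed at 5 counts or fewer in each library, and Klk9 lay between 14 and 19 in the E11.5 libraries with 10 at E10.5. Among the 20 tested neighbours 1 changed, the synaptic adhesion gene Lrrc4b, from 3.27 ± 0.393 to 7.34 ± 1.65 CPM (log2 change 1.16, SE 0.21, adjusted p = 0.00471). The neighbour on the other side, 1700028J19Rik, had -0.61 with an adjusted p of 0.524.

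Nlrp1a encodes an inflammasome sensor, a protein that activates caspase-1 on sensing damage or infection. It measured 13.3 and 13.7 CPM in mutant libraries, 61.1 and 65.5 in wild type, and 125 at E10.5. Each group stood apart, with E10.5 highest. The mutant was 4.69-fold lower than wild type (log2 change -2.24, SE 0.10), and E10.5 was 9.25-fold above the mutant. E10.5 was 1.97-fold above the wild-type mean in CPM, and the call against wild type ended when libraries were scaled by library size alone. The closest relative, Nlrp1b, lies next to Nlrp1a among the counted genes and has 85.9% identity over 3534 aligned coding bases. Only 2.28% of Nlrp1a windows of 50 bases occur in another gene. Reads of both genes can thus mostly be told apart. Their coding starts, bases 1 to 60, differ at 8 bases, in capitals.
Nlrp1a: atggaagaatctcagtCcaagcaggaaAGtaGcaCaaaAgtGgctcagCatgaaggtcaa
Nlrp1b: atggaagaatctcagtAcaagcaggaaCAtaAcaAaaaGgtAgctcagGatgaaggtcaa
Nlrp1b had 2 and 7 counts in the mutant, 8 and 17 in wild type and 8 at E10.5. The pseudogene Nlrp1c-ps of the same array had 8 and 9 counts in the mutant and 0 in wild type and at E10.5, opposite in direction to Nlrp1a.

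Of 11 other tested inflammasome genes 0 rose and 0 fell (median -0.02), with 1 at an unadjusted p under 0.05 in edgeR and 0 by DESeq2. The adaptor Pycard had 277 and 269 counts in the mutant and 228 and 287 in wild type, the sensor Aim2 318 and 312 against 286 and 302, and caspase-1 (Casp1) 22 and 23 against 29 and 38. The sensor Nlrp10 had 80 and 51 against 113 and 119 (log2 change -0.96, adjusted p = 0.0546). Dpp8, a protease that restrains NLRP1, had 193 and 190 CPM in mutant libraries and 183 and 182 in wild type. Nlrc4 counts lay between 12 and 21 and Il18 counts between 25 and 34 in the E11.5 libraries, and the cytokine Il1b had 8 counts or fewer in each library. Nlrp3 had 28 and 7 in the mutant and 8 and 4 in wild type, Casp4 8 and 13 against 12 and 36, and Gsdmd, the pore former, 111 and 112 against 114 and 182. Dpp9 (-0.05) and Txnip (0.21) did not pass. Macrophage markers were counted beside Nlrp1a, since macrophages are known to express inflammasome genes. Of 15 tested 2 rose and 0 fell, Lyz2 (1.19, adjusted p = 0.0178) and Mrc1 (0.62, adjusted p = 0.0306). The log2 change was above 0 for 13 of the 15 and below 0 for 2, with 3 at an unadjusted p under 0.05 in edgeR. Mrc1 had an adjusted p of 0.0514 with library size scaling, and its log2 change was 0.36 when wild-type replicate 1 was left out and 0.93 when replicate 2 was. The summed level of the markers was 95.7 and 92.5 CPM in mutant libraries, 63.2 and 80.2 in wild type and 19.6 at E10.5, where Nlrp1a was highest. Their part in the Nlrp1a values was not tested. Near Nlrp1a 1 of 20 tested neighbours changed, the citrate transporter gene Slc13a5 (-3.24, SE 0.88, adjusted p = 0.0473), at 0 and 0.0828 CPM in mutant libraries against 0.488 and 0.269. Leaving out mutant replicate 1 gave a log2 change of -2.15, and leaving out replicate 2 left a mutant library at 0, so that no size is given. Its adjusted p was 0.265 without mutant replicate 1, 0.139 without wild-type replicate 1, 0.0645 with the replicate block, 0.0874 with library size scaling and 0.0511 with DESeq2 size factors, and DESeq2 gave none. The nearest tested genes were 6330403K07Rik (-0.15) and Wscd1 (0.10).

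Trim12a encodes a member of the TRIM5 group of proteins, some of which recognise retroviral capsids. It measured 3.46 and 2.86 CPM in mutant libraries, 0.421 and 0.215 in wild type, and 0.119 at E10.5. In counts these were 207 and 138, 19 and 12, and 10. The E10.5 and wild-type libraries were low and the mutant libraries high. The mutant mean was 9.93-fold above wild type (log2 change 3.33, SE 0.35) and 26.6-fold above E10.5. Its call against wild type at E10.5 appeared without wild-type replicate 2, as lower. Trim12a is 97% identical to Trim5 and 96.3% to Trim12c over its 894 coding bases, fewer than the 1494 of each of them. Of its 50-base windows 31.2% occur in another gene. Trim5, which shares the most windows, is not among the genes counted. Reads without a unique alignment were not counted to any gene, so reads of shared windows can be missing from Trim12a. Which of these near-identical genes the counted reads come from is uncertain. Bases 1 to 60 of the coding sequence hold no difference from Trim5, so no capitals appear.
Trim12a: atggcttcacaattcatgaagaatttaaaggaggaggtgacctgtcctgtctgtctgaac
Trim5: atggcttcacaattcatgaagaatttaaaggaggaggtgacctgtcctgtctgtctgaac
Trim12c, with 1 counted gene between it and Trim12a, had 15.6 and 14.7 CPM in mutant libraries, 17.2 and 15.4 in wild type and 7.20 at E10.5 (-0.12, SE 0.12, adjusted p = 0.679).

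Of 8 other tested TRIM5-related genes 0 rose and 1 fell (median 0.10), with 3 at an unadjusted p under 0.05 in edgeR and 1 called by DESeq2. The one that fell was Trim25, a ubiquitin ligase of RIG-I signalling (-0.88, SE 0.20, adjusted p = 0.0219), with 0.125 without mutant replicate 1 and 0.057 with library size scaling. Trim34a, next to Trim12a, had 92 and 88 counts in the mutant and 46 and 45 in wild type (0.87, adjusted p = 0.116), and Trim30a had 83 and 37 against 21 and 39 (0.87, adjusted p = 0.268). Trim30d had 11 and 6 counts in the mutant, 0 in wild type and 1 at E10.5. Trim30b had 1 and 1 against 6 and 2, Trim34b 5 and 5 against 8 and 14, and Trim38 4 and 4 against 0 and 2. Trim6 (0.53), Trim21 (0.14), Trim68 (-0.18) and Trim26 (0.06) did not pass. Interferon response genes were listed because interferon induces many TRIM genes. Of 17 tested 2 rose and 0 fell (median 0.14), namely Ifit3, an antiviral RNA-binding protein (2.25, SE 0.28, adjusted p = 0.000367), and Bst2, which tethers virus particles (1.76, SE 0.33, adjusted p = 0.007). By unadjusted p under 0.05 in edgeR there were 6, and DESeq2 called 2. Ifit3 was at 2.94 and 3.87 CPM in mutant libraries, 0.754 and 0.663 in wild type and 0.131 at E10.5.

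Near Trim12a 1 of 20 tested neighbours rose and 1 fell, both in the beta-globin cluster, whose haplotypes are a textbook strain difference. The globin gene listed as Beta-s measured 18.7 and 20.5 CPM in mutant libraries, 60.6 and 60.2 in wild type and 13.8 at E10.5 (-1.64, SE 0.10, adjusted p = 1.72e-06). The embryonic globin Hbb-bh1 measured 622 and 641, 356 and 358, and 980 (0.81, SE 0.08, adjusted p = 0.000121). Globin genes have near-identical copies, so their counts are uncertain. The part of strain origin and of red cell content in these globin values was not tested.

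BC049730 encodes a protein of the Ly6/uPAR family, small cell-surface or secreted proteins, and is named Lypd10 in RefSeq. It had 0 counts in both mutant libraries, 365 and 469 in wild type (8.09 and 8.40 CPM) and 104 at E10.5 (1.24 CPM). The E10.5 library lay between both genotypes. A count of 0 allows up to 0.0277 CPM over the mutant libraries. Wild type was at least 298-fold above the mutant and 6.67-fold above E10.5, and E10.5 was at least 44.5-fold above the mutant. Of its 50-base windows 14.9% occur in another gene, in the adjacent Gm4763 and in Cd177, which had 2 counts or fewer in each library. Of 10 other tested Ly6/uPAR genes 0 rose and 0 fell (median -0.08), and 0 had an unadjusted p under 0.05 in edgeR or were called by DESeq2. The most abundant, Ly6e, had 9.41 and 7.41 CPM in mutant libraries and 9.38 and 10.1 in wild type. No neighbour of the 20 tested changed in edgeR, with 0 at an unadjusted p under 0.05 and 0 by DESeq2. The nearest tested were Lypd3 (-0.16) and Ceacam10 (-1.12, SE 0.76, adjusted p = 0.483).

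Cldn13 encodes a claudin, a family of tight junction proteins, and is known in the mouse for its expression in red cell precursors. It had 44 and 39 counts in the mutant (0.735 and 0.807 CPM), 0 in both wild-type libraries and 77 at E10.5 (0.915 CPM). Mutant and E10.5 libraries were alike and wild type was at 0, which allows up to 0.0297 CPM. The mutant was at least 25.8-fold and E10.5 at least 30.8-fold above wild type. None of its 50-base windows occurs in another gene. Of 17 other tested claudins 0 rose and 1 fell (median -0.04), Cldn10 (-2.27, SE 0.34, adjusted p = 0.0015), at 0.351 and 0.414 CPM in mutant libraries, 1.64 and 1.99 in wild type and 1.85 at E10.5.

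Because Cldn13 is known from red cell precursors, erythroid markers were counted beside it. Of 17 tested 3 rose and 0 fell (median log2 change 0.34), namely Hbb-bh1, Hemgn (0.80, adjusted p = 0.00428) and Rhd (0.63, adjusted p = 0.0381). All 17 markers had a log2 change above 0, 12 of them with an unadjusted p under 0.05 in edgeR, and DESeq2 called 3. Their summed level was 3137 and 3085 CPM in mutant libraries, 2498 and 2401 in wild type and 3530 at E10.5, a ratio of 1.27 between genotypes. Most of this sum came from Hbb-y and Hbb-bh1 of the beta-globin cluster, so the ratio mainly reflects these genes and says little about the other markers. Hemgn and Rhd lie outside that cluster, on chromosome 4. Hbb-y measured 2095 and 2100 CPM in mutant libraries, 1841 and 1752 in wild type and 1761 at E10.5. Hba-a1, Hbb-b1 and Hbb-b2 were at 0 in all libraries. The globin Beta-s, which the list does not hold, fell as given with the neighbours of Trim12a, from 60.4 ± 0.286 to 19.6 ± 1.25 CPM. The part of these cells in the Cldn13 values was not tested. The Rhd call ended without mutant replicate 1 (0.239), mutant replicate 2 (0.0989) or wild-type replicate 2 (0.0652), and with library size scaling (0.0572). Around Cldn13 0 of 20 tested neighbours changed in edgeR, with 4 at an unadjusted p under 0.05 and 0 by DESeq2. The elastin gene Eln (0.54, adjusted p = 0.0641) and Wbscr27 (0.51, adjusted p = 0.0782) were the nearest.

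Wdr65, named Cfap57 in RefSeq, encodes a WD-repeat protein of motile cilia and flagella. It measured 1.94 and 1.86 CPM in mutant libraries, 0.0443 and 0.197 in wild type, and 0.273 at E10.5. In counts these were 116 and 90, 2 and 11, and 23. The E10.5 and wild-type libraries were low. The mutant mean was 15.8-fold above wild type (log2 change 3.86, SE 0.48) and 6.96-fold above E10.5. Its log2 difference was 5.36 when wild-type replicate 2 was left out and 3.22 when replicate 1 was, and the E10.5 library was called higher than wild type without wild-type replicate 2. None of its 50-base windows occurs in another gene. Of 20 tested motile cilium genes (24 of 34 listed names were in the tables) 4 had an unadjusted p under 0.05 in edgeR, and DESeq2 called 1. By adjusted p in edgeR 1 rose and 0 fell (median 0.16). It was Wdr78, a dynein component (0.55, SE 0.12, adjusted p = 0.0189), whose adjusted p was 0.110 without mutant replicate 2. Foxj1, the master regulator of motile cilia, had 21 and 25 counts in the mutant and 18 and 21 in wild type (named after its value was seen). Next to Wdr65 0 of 20 tested neighbours changed in edgeR, with 2 at an unadjusted p under 0.05 and 0 by DESeq2. The nearest were Tmem125 (adjusted p = 0.437) and Ebna1bp2 (-0.02).

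**Figure D3:**
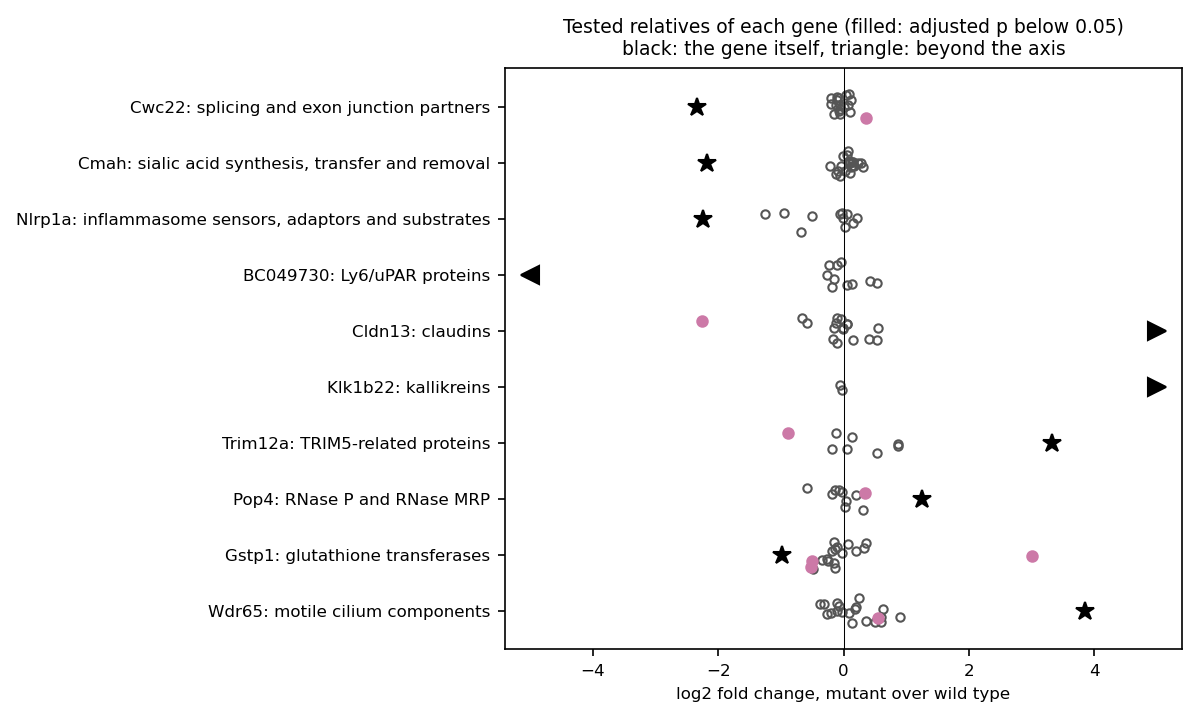
Log2 change, mutant over wild type (horizontal axis), of the tested relatives of each of the 10 genes (circles, filled where the adjusted p was below 0.05), with the gene itself in black (star, or triangle where it lies beyond the axis). Nearly all relatives shown sit close to 0, away from the black symbol. The 10 genes were picked for large differences, so this gap is a description. Relatives that did not pass the low-count filter are not shown.

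Over all 12 family and pathway lists 6 of 166 tested genes rose and 5 fell (median -0.02), which is not above the 7.16% of all genes. Counts in 1 genotype alone (at least 5 in both of its libraries and 0 in both of the other) were found in 3 of 184 listed genes, the Klk15, Nlrp1c-ps and Trim30d given above, against 0.173% of 16802 genes. Each of the 3 belongs to the array of a gene picked here, and the lists were chosen with earlier results of these data known.

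**Figure D4:**
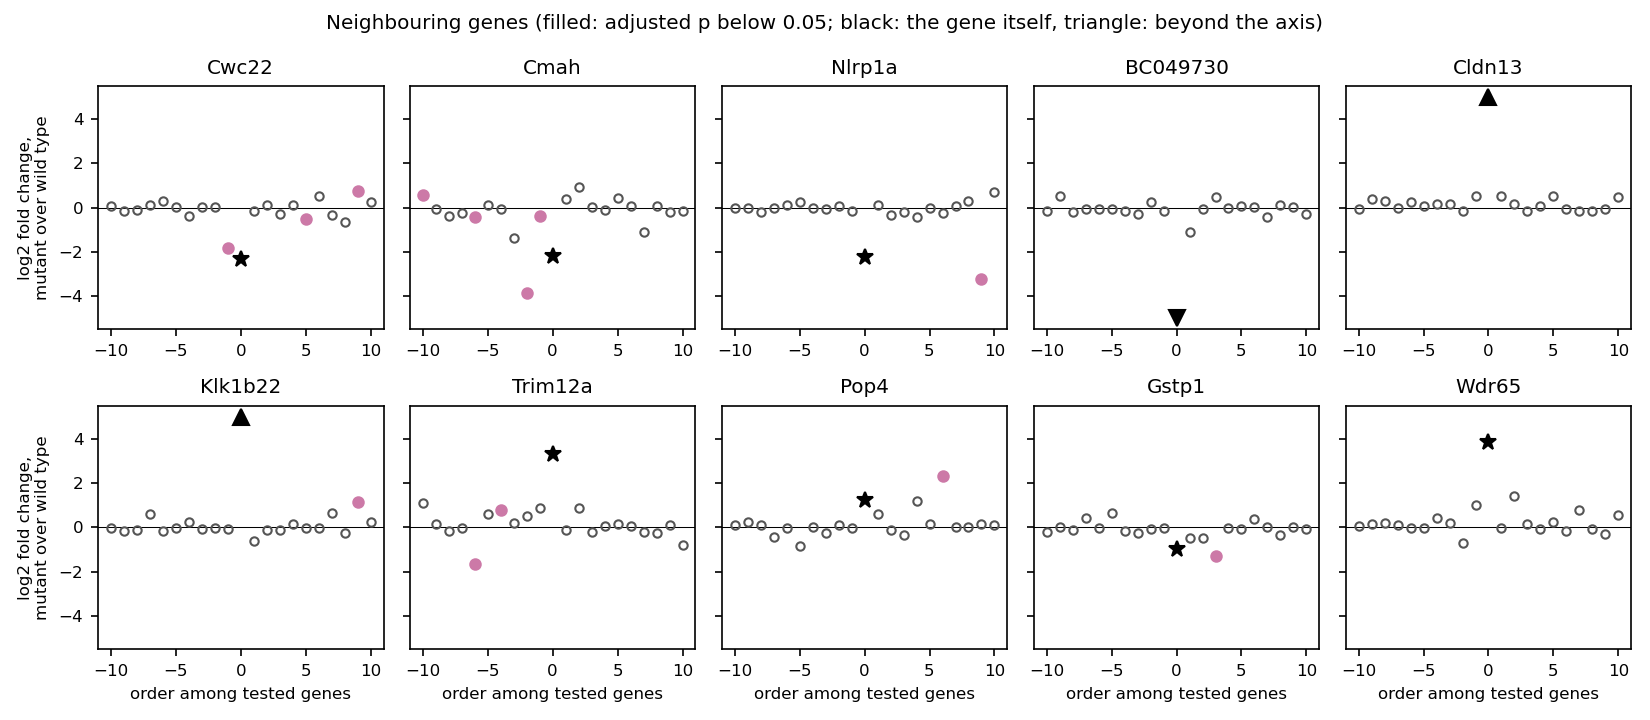
Log2 change, mutant over wild type (vertical axis), of the 10 nearest tested genes on each side of each gene, by their order on the chromosome (horizontal axis), filled where the adjusted p was below 0.05, with the gene itself in black at 0 (triangle where it lies beyond the axis). Filled points are most frequent beside Cmah (4 of 20) and Cwc22 (3 of 20).

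Together the windows of 10 tested genes on each side held 200 neighbours, of which 5 rose and 8 fell, or 6.5% beside 7.16% of all genes. With 5 genes on each side the share was 6%, and with 20 it was 6.04%. The share called on chromosome 7, which holds 4 of the 10 genes, was 5.94% of 1228 tested genes. On the chromosomes of the other 6 it was 9.62% (chromosome 2, Cwc22), 9.80% (13, Cmah), 8.35% (4, Wdr65), 6.56% (5, Cldn13), 6.42% (19, Gstp1) and 5.21% (11, Nlrp1a).

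For each gene the tested genes of most similar profile were found by the root mean square distance of log2 values centred over the 5 libraries. Nearest to Cmah were Mfap3l (distance 0.13) and the Notch ligand gene Jag1 (0.17), and nearest to Cwc22 were Tmem30b and Slco1c1 (0.14 each). Pop4 was followed by Gm13251 (0.09), and Gstp1 by the small RNA genes Mir1983 and Snora78 (0.16 each). The nearest profiles to Wdr65 were those of H2-Ab1, a highly polymorphic class II histocompatibility gene (0.29), and Pth2r (0.35). H2-Ab1 had 1.30 and 0.828 CPM in mutant libraries, 0 and 0.0537 in wild type and 0.143 at E10.5. Klk1b22 was nearest to Rbm44 (0.40), which had 1.40 and 2.28 CPM in mutant libraries, 0.0222 and 0 in wild type and 0 at E10.5, and then to Elmod1 (0.78). Trim12a was nearest to Cacna1e (0.38) and Myo7a (0.39), and Cldn13 to the ridge growth factor gene Fgf4 (0.51) and 2610305D13Rik (0.55). For Nlrp1a the nearest were Hist2h3c1 (0.38) and Cldn10 (0.41). BC049730 had no close match, with Gm8994 at 1.46 and Masp1 at 1.70.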

How the data were processed

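The deposited values are whole-number read counts for each gene symbol from HTSeq, per the file contents; per the submitters' processing notes TopHat2 2.0.13, Cufflinks 2.1.1 and SAMtools were also used, with mm9. The counting annotation and strand setting are not given in the sources used here. Reads outside genes made up 24.3% to 39.6% of the counted lines, and those without a unique alignment 9.10% to 14.8%; both stayed out of library sizes. The 4 E11.5 libraries were tested with edgeR 4.0.16 (R 4.3.3): filterByExpr (minimum count 10, total 15), TMM, quasi-likelihood F test, Benjamini-Hochberg over all genes. SE belongs to the log2 fold change. The 10 genes, the gene lists and the naming rules were chosen with earlier results of these data known. Named are the 10 genes, up to 4 changed genes of each list (else the most abundant), changed and nearest tested neighbours, relatives of Trim12a, Klk1b22, Gstp1 and Nlrp1a with at least 10 counts, and the 2 nearest profiles, of which 1 is not reported here. Gene order came from the RefSeq table of GRCm38.p6, where 20683 symbols matched a current name, 2355 an older one and 246 none; its positions are not printed because the build differs. BC049730 was matched to Lypd10 by its position. Coding sequences and 50-base windows came from GENCODE M21 transcripts. Alternatives were DESeq2 1.42.0, other scalings and filters, the newer edgeR estimate, a replicate block and leaving out each library. Pools were separate, so p-values measure the spread between pools.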

Additional observations from a re-analysis of the deposited data

How the results depend on the processing

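None of the 10 genes reversed its mutant against wild-type direction in 108 recomputations (11 alternatives, of which the stricter filter removed Cldn13 and Klk1b22). The number of changed genes was 1157, and 1762 without the low-count filter. Leaving out 1 library gave 796 to 2018, the latter without wild-type replicate 1. Of the listed relatives 11 changed, 20 without the filter, and 6 (without mutant replicate 2) to 17 (without wild-type replicate 2) with 1 library left out. Of the neighbours 13 changed, 25 without the filter, 8 with the stricter filter, and 11 to 26 (without wild-type replicate 1) with 1 library left out. With the replicate number as a block 1252 genes changed, 11 relatives and 14 neighbours; same-numbered libraries share only a number (correlation of deviations across genes -0.08). At E10.5 2801 genes were called against wild type and 3126 against the mutant, and 1702 and 1920 with the stricter filter. Scaling by library size alone moved the median E10.5 difference from -0.02 to -0.25 against wild type and from -0.02 to -0.28 against the mutant, and the share of higher calls against the mutant from 22.1% to 11.6%. Where no cause is evident from fewer genes or samples, the cause was not tested. Low counts limit Cldn13, Klk1b22, Trim12a and Wdr65.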

Other observations

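Counts of at least 20 in both libraries of 1 genotype and 0 in both of the other were found in 5 genes, or 0.033% of 15151. Beside BC049730, Cldn13 and Klk1b22 these were Usp9y and Cyct, both named after their values were seen. Cyct, the testis form of cytochrome c, lies on chromosome 2 between the targeted Hoxd13 and Cwc22. It had 34 and 20 counts in wild type, 0 in the mutant and 19 at E10.5. Usp9y, a ubiquitin protease gene of the Y chromosome, had 86 and 49 counts in wild type, 0 in the mutant and 3 at E10.5. Other Y-linked genes were present in both genotypes. Ddx3y measured 162 and 190 CPM in the mutant and 191 and 194 in wild type, Eif2s3y 89.0 and 97.7 against 102 and 98.4, and Uty 115 and 124 against 115 and 110. Kdm5d was higher in the mutant, at 124 in both libraries against 95.2 and 97.1 (log2 fold change 0.36, SE 0.08, adjusted p = 0.0242 by edgeR). At E10.5 Ddx3y measured 75.4 CPM, Eif2s3y 38.9, Uty 44.4 and Kdm5d 43.0, each below both E11.5 genotypes.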
